A study of Mus musculus with 17 samples.

Results

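The late effect of bFGF was examined in 8 of the 17 RNA-seq libraries of mouse neural retinal progenitor cells (mNRPCs), those of days 5 and 7. Libraries whose medium held bFGF were set against those whose medium did not, 4 against 4. The mNRPCs came from the neural retina of adult C57BL/6 mice, and by the study's methods the line was propagated in medium with both bFGF and CHIR99021, so that the cells without bFGF were cells from which a factor of their usual medium had been left out. BM is the basic medium, with N2 and B27 supplements. B is BM with bFGF, C is BM with CHIR99021, an inhibitor of the kinase GSK3, and BC is BM with both. Each of the 4 media was sequenced once on day 5 and once on day 7. The libraries with bFGF are therefore B and BC of both days, and those without are BM and C of both days. Each library with bFGF has a partner of the same day and the same CHIR99021 treatment, which gives 4 pairs.

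Basic fibroblast growth factor, also called FGF2, binds receptor tyrosine kinases of the FGF receptor family. The receptors signal through RAS and the kinases MEK and ERK, and ERK in turn induces its own inhibitors, such as the Sprouty proteins and the dual-specificity phosphatases, together with ETS transcription factors. bFGF is a common mitogen for neural progenitors in culture, where it drives cells through G1 into S phase.

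Depth was even and composition was not. The total expected count ran from 17571973 to 18513598 over the 8 libraries. The 10 highest genes took 7.45% to 7.68% of the counts with bFGF and 3.0% to 3.63% without, and the TMM factors, which scale for such differences in composition, were 0.826 to 0.873 with bFGF and 1.16 to 1.19 without. FPKM values below are as deposited and carry no such scaling, whereas log2 fold changes come from edgeR's quasi-likelihood test with TMM scaling, with day and CHIR99021 as covariates. No medium was repeated on a day, so the standard errors (SE) and adjusted p-values measure departures from additive effects of day, CHIR99021 and bFGF, and not the spread between cultures. The biological coefficient of variation was 13.8% on that basis. In bulk RNA, fewer cells of a type and less RNA per cell cannot be told apart. Of the transcription factors that mark retinal progenitors, Pax6, Six3 and Sox2 were present in the 8 libraries, while Rax was at or below an FPKM of 0.03 and Otx2 was listed at 0.

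Most expressed genes differed between mNRPCs with and without bFGF on days 5 and 7. Of 11246 genes tested, 8605 (76.5%) had an adjusted p-value under 0.05, 4100 higher with bFGF (36.5%) and 4505 lower (40.1%). The counts of list members below are to be read beside these shares. Only members whose mean FPKM over the 8 libraries reached 1 were tested. A member near 0 with bFGF could pass this limit only through the libraries without it, and the reverse. Such a member could only be called in that direction. Where a list holds such members, its counts and median are partly set by this limit. All 4 pairs went the same way in 8296 of these genes and in 8723 of all genes tested. The calls were made from these same pairs, so their agreement is no separate support for the calls. A stricter group was at least 2-fold apart in the same direction in all 4 pairs, and it held 1136 genes that were higher (10.1% of those tested) and 1638 that were lower (14.6%). The directions depended on the scaling. With library totals in place of TMM factors, 2387 genes were higher and 6515 lower, and the median gene moved from -0.045 to -0.50 on the log2 scale. A rise smaller than that shift turns into a fall with library totals.

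The 12 largest rises among well expressed genes (mean FPKM 20 or more over the 8 libraries) had log2 fold changes between 4.87 and 7.15. The first of them was Gdf15, a secreted protein of the TGF-β superfamily that cells make under stress. Its FPKM without bFGF was 4.11 in BM and 3.09 in C on day 5, and 3.54 in BM and 4.11 in C on day 7. With bFGF it was 431 in B and 308 in BC on day 5, and 396 in B and 403 in BC on day 7. The 4 libraries of each kind thus lay close together and far from the other 4, and the log2 fold change was 7.15 ± 0.16 (SE, edgeR adjusted p = 1.01e-08). Car9, a membrane carbonic anhydrase and a classical target of hypoxia-inducible factor, stood at 2.76 to 8.91 without bFGF and at 410, 444, 433 and 542 in B and BC of day 5 and B and BC of day 7, a log2 fold change of 6.95 ± 0.37 (SE, edgeR adjusted p = 2.71e-07). Its pair differences ranged from 5.96 to 7.86, and the level without bFGF was lower on day 7 than on day 5.

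Il33, an alarmin cytokine stored in the nucleus, was at 2.5 to 5.62 without bFGF and at 101 to 367 with it. The highest values were those of day 7, 367 in B and 240 in BC, against 156 and 101 on day 5. Ero1l, the oxidase that drives disulfide bond formation in the endoplasmic reticulum, was among the most even of these genes, with 19.5 to 22 without bFGF and 411 to 709 with it. Adm, which encodes the vasoactive peptide adrenomedullin, went from 4.67 to 6.96 without bFGF to 105 to 176 with it. Sprr1a, a cornified envelope protein that injured neurons also make, rose from 2.83 to 9.84 without bFGF to 91.9 to 288. Csn3, a milk casein gene, rose from 3.75 to 11.2 to 113 to 217.

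Aqp8, a water channel, was at 1.19 to 2.09 without bFGF and at 21.6 to 80.5 with it. Angptl7, a secreted angiopoietin-like protein, differed among the libraries of each kind as well. It was 51.8 in BM and 22.8 in C on day 5 and 26.8 and 12.1 on day 7, and with bFGF it was 596 and 986 in B and BC of day 5 and 286 and 501 in those of day 7. The remaining 3 genes are uncertain as single genes, since reads of near-identical copies can be split between them. Prl2c2 and Prl2c3, both proliferins of the prolactin family, rose by 5.57 ± 0.24 and 5.89 ± 0.35 on the log2 scale (SE). Hspa1a, an inducible HSP70, rose by 5.04 ± 0.58 (SE), and its copy Hspa1b by 3.82 ± 0.52.

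**Figure D1:**
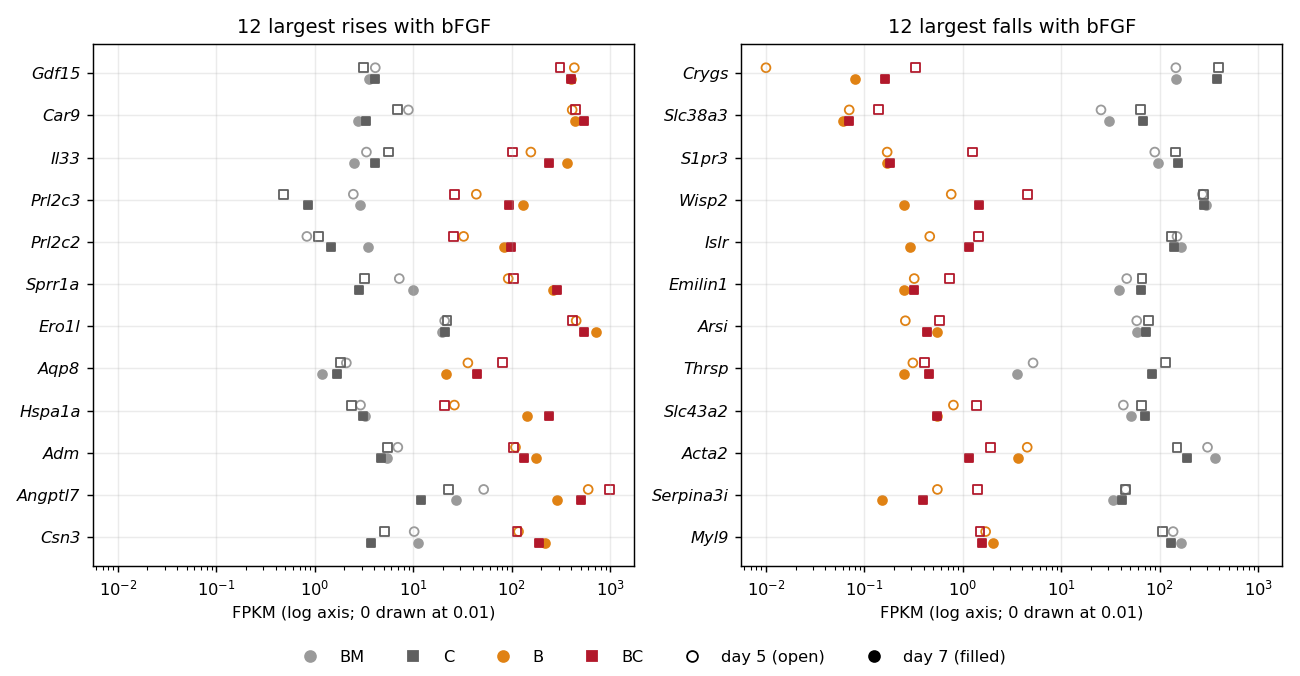
FPKM (log axis) of the 12 largest rises and the 12 largest falls with bFGF in the 8 libraries of days 5 and 7, with BM and C in greys, B in orange and BC in red, circles for media without and squares for media with CHIR99021, open symbols for day 5 and filled symbols for day 7. The 24 genes were chosen for the largest changes in these same libraries, so it follows from the choice that orange and red symbols lie apart from grey ones. The level of Thrsp without bFGF splits by CHIR99021.

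The 12 largest falls had log2 fold changes between -5.81 and -10.33. Crygs, a γ-crystallin best known from the lens, had an FPKM of 145 in BM and 392 in C on day 5 and of 144 and 383 on day 7. With bFGF it was listed at 0 in B and at 0.33 in BC on day 5, and at 0.08 and 0.16 on day 7, which rests on counts of 0, 4, 1 and 2. Slc38a3, a glutamine transporter, was at 25.2 to 67.7 without bFGF and at 0.06 to 0.14 with it. For both genes C was higher than BM on each day, and no order could be read at the low counts with bFGF.

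Acta2, smooth muscle actin, had an FPKM of 304 in BM and 149 in C on day 5 and of 365 and 190 on day 7, against 4.49, 1.91, 3.6 and 1.14 in B and BC of day 5 and B and BC of day 7. It fell by 5.97 ± 0.16 on the log2 scale (SE, edgeR adjusted p = 1.84e-08). Myl9, the regulatory light chain of smooth muscle myosin, was at 107 to 163 without bFGF and at 1.49 to 2.0 with it, and its 4 pair differences were nearly equal, from -5.83 to -5.64. Wisp2, a secreted CCN family protein, was at 270 to 293 without bFGF and at 0.25 to 4.49 with it. Emilin1, an elastic fibre glycoprotein, was at 38.2 to 65.8 without and 0.25 to 0.73 with bFGF. S1pr3, a receptor for sphingosine-1-phosphate, was at 88.6 to 153 without and 0.17 to 1.24 with bFGF.

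Islr, a secreted immunoglobulin-domain protein of mesenchymal cells, was at 132 to 163 without bFGF and 0.29 to 1.44 with it. Acta2 is also in a list of 15 markers of mural cells and fibroblasts. Of its 8 members tested, 6 were lower with bFGF and 2, Twist1 and Prrx1, were higher, and its summed FPKM was 587 to 965 without bFGF and 155 to 264 with it, while the pericyte markers Rgs5 and Cspg4 were at or below 0.1 and 0.05 in the 8 libraries. Pdgfrb, a receptor of mural cells and fibroblasts, was at 93.4 to 115 without bFGF and at 5.25 to 13.2 with it. The part of such cells in the fall of Acta2 was not tested. The other 4 were Arsi, a sulfatase (58.1 to 76.2 without bFGF, 0.26 to 0.58 with it), Slc43a2, a transporter of large neutral amino acids (42.5 to 70.2 and 0.54 to 1.36), Serpina3i, a serpin of a multigene family (33.1 to 45.1 and 0.15 to 1.41), and Thrsp, a regulator of lipid synthesis. Thrsp was at 5.15 in BM and 114 in C on day 5 and at 3.51 and 83.6 on day 7, against 0.25 to 0.45 with bFGF.

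Feedback genes of the ERK pathway were higher with bFGF on days 5 and 7. Of 15 tested, 8 were higher and 1 was lower, with a median log2 fold change of 1.06 against -0.045 over all genes tested. With library totals the counts were 8 and 4, and on the log2(FPKM + 1) scale 7 were higher and 5 lower with a median of -0.02. Dusp4, a nuclear ERK phosphatase, was at 5.41 in BM and 3.76 in C on day 5 and at 7.96 and 5.25 on day 7. With bFGF it was at 113 and 91.6 in B and BC on day 5 and at 106 and 79.5 on day 7, a log2 fold change of 4.61 ± 0.15 (SE, edgeR adjusted p = 5.21e-08). Etv4 and Etv5, ETS transcription factors, rose by 3.89 ± 0.16 and 2.70 ± 0.19 on the log2 scale (SE). Spry4 rose by 3.22 ± 0.16, Dusp6, a cytoplasmic ERK phosphatase, by 2.39 ± 0.21, and Spry2 by 1.22 ± 0.13. Il17rd, the FGF inhibitor Sef, went the other way, with an FPKM of 5.47 to 8.5 without bFGF and of 1.62 to 3.92 with it.

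Among receptors and ligands of the FGF family, 1 of 8 members tested was higher and 4 were lower, and 1 and 7 with library totals. Fgfr1, the receptor with the highest level here, had an FPKM of 76.3 to 119 without bFGF and of 70.6 to 80.6 with it, and its log2 fold change of 0.02 ± 0.12 was not past the threshold (SE, edgeR adjusted p = 0.877). It turned negative under several settings and was past the threshold as lower with library totals (-0.43) and with limma (-0.32 on both scales). Fgf7 rose by 1.32 ± 0.19 on the log2 scale (SE), and Fgf11, an intracellular FGF, fell by 1.94 ± 0.16. In the EGF family, 4 of 10 were higher, near the 36.5% of all genes tested, and 2 were lower. With library totals 3 were higher and 4 lower. Errfi1, a feedback inhibitor of EGF receptors, was at 11.1 to 12.3 without bFGF and at 20.8 to 22.4 with it, and Hbegf, a ligand, rose by 1.14 ± 0.16 on the log2 scale (SE), though its FPKM overlapped between the groups. Erbb2, the co-receptor of the family, was at 11.5 to 14.4 without bFGF and at 0.55 to 1.28 with it.

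Immediate early genes split. Of 13 tested, 7 were higher and 3 lower with bFGF, and 5 and 4 with library totals. Fosl1, the AP-1 subunit FRA1, was at 3.12 to 5.54 without bFGF and at 38, 35, 75.5 and 81.4 in B and BC of day 5 and B and BC of day 7. Myc was at 6.71 to 19.0 without bFGF and at 31.6 to 45.4 with it. Atf3 and Jund rose by 1.69 ± 0.17 and 1.25 ± 0.13 on the log2 scale (SE). Egr1 and Ier2, which a growth stimulus induces within minutes, were lower, with FPKM of 43.4 to 56.5 and 18.6 to 25.5 without bFGF against 4.12 to 29.2 and 4.6 to 8.79 with it.

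All 62 G2 and mitosis genes tested were higher with bFGF, with a median log2 fold change of 2.73, and the summed FPKM of the list was 418 to 564 without bFGF and 1930 to 2930 with it. With library totals 62 were still higher, and the median was 2.27. Ube2c, the ubiquitin-conjugating enzyme of the anaphase-promoting complex, was at 32.1 in BM and 20.1 in C on day 5 and at 28.5 and 21.8 on day 7. With bFGF it was at 335 in B and 202 in BC on day 5 and at 344 and 298 on day 7. The groups did not overlap, and Ube2c rose by 3.98 ± 0.15 on the log2 scale (SE, edgeR adjusted p = 6.63e-08). Anln, a scaffold of the cytokinetic ring, rose by 3.86 ± 0.15 (SE), Cenpa, the histone variant of centromeres, by 3.52 ± 0.14, and Aurkb, a mitotic kinase, by 3.41 ± 0.15. Cdk1, the kinase that drives mitosis, was at 7.61 to 9.1 without bFGF and at 32.4 to 48.4 with it, and its partners Ccnb1 and Ccnb2 rose by 2.19 ± 0.11 and 2.99 ± 0.16. The proliferation marker Mki67 rose by 1.97 ± 0.12, from 8.99 to 12.4 without bFGF to 23.8 to 35.3 with it.

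DNA replication genes moved less. Of 46 tested, 41 were higher and 2 lower, with a median of 0.97, and with library totals 30 were higher and 2 lower with a median of 0.51. Cdt1, which licenses origins, was at 6.85 to 8.19 without bFGF and at 28.8 to 43.0 with it. Uhrf1, which guides maintenance DNA methylation, rose by 2.25 ± 0.12 on the log2 scale (SE), and Pold2, a subunit of DNA polymerase δ, by 1.19 ± 0.09. Pcna, the sliding clamp, overlapped between the groups in FPKM, with 37.7 to 52.1 without bFGF and 43.5 to 84.7 with it. Of the 19 G1 cyclins, CDKs, E2F and pocket proteins, 14 were higher and 1 was lower, with a median of 0.48, but with library totals the counts were 5 and 5. Ccnd1, the cyclin that growth factors induce, was at 82.9 to 130 without bFGF and at 411, 313, 272 and 253 in B and BC of day 5 and B and BC of day 7.

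Of 8 inhibitors of cyclin-dependent kinases tested, 5 were higher with bFGF and none was lower, and with library totals 5 were higher and 2 lower. Cdkn1a, which encodes p21, was at 1.95 in BM and 3.96 in C on day 5 and at 3.27 and 4.48 on day 7, against 35.4, 36.9, 47.8 and 44.9 in B and BC of day 5 and B and BC of day 7, a log2 fold change of 4.08 ± 0.17 (SE, edgeR adjusted p = 1.09e-07). Cdkn2a, the locus of p16 and p19ARF, was at 167 to 187 without bFGF and at 211 to 338 with it. Cdkn3, a phosphatase of CDKs, rose by 1.70 ± 0.34 (SE), with overlapping FPKM. Targets of p53, a list that holds Cdkn1a and Gdf15, did not move together. Of 24, 8 were higher and 13 lower, and 5 and 15 with library totals. Plk3, a stress-induced kinase, was at 3.39 to 4.67 without bFGF and at 35.2 to 97.8 with it. Btg2, an antiproliferative protein, fell by 2.54 ± 0.20 on the log2 scale (SE), Xpc, a sensor of DNA damage, by 1.47 ± 0.14, Fas, a death receptor, by 1.24 ± 0.16, and Phlda3 by 0.98 ± 0.12.

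The promoters of the mitotic genes are shown because the list moved as a whole. In RefSeq's promoter windows of GRCm38.p6 (250 bases before to 50 after each annotated start), 2 elements known from cell cycle promoters were searched on both strands, the cell cycle homology region TTTGAA and the CCAAT box CCAAT. Of the 49 G2 and mitosis genes matched, 35 (71.4%) held TTTGAA in at least 1 window, against 1216 of the 8687 tested genes matched (14.0%) and 17.9% of all 32851 windows. CCAAT was in 34 of the 49 (69.4%), against 43.9% of the tested genes and 37.4% of all windows. A list of known mitotic genes is likely to hold such elements whatever bFGF does. The shares therefore describe the list and not an effect of bFGF. A match is a run of letters and not a shown binding site. Part of the windows before the starts of Cdk1 (chr10:69352913-69353145, minus strand) and Ccnb2 (chr9:70421555-70421746, minus strand) follows, with both elements in capitals, ATTGG being the letters of CCAAT on the other strand.
Cdk1: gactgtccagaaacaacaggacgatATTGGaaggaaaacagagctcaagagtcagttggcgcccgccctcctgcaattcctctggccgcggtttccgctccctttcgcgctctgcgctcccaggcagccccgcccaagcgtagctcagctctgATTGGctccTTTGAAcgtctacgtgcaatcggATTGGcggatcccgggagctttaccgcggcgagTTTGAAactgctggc
Ccnb2: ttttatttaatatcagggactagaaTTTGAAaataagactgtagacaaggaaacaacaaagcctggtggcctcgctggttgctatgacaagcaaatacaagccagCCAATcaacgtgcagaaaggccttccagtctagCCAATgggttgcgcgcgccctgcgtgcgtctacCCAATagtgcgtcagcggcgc

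**Figure D2:**
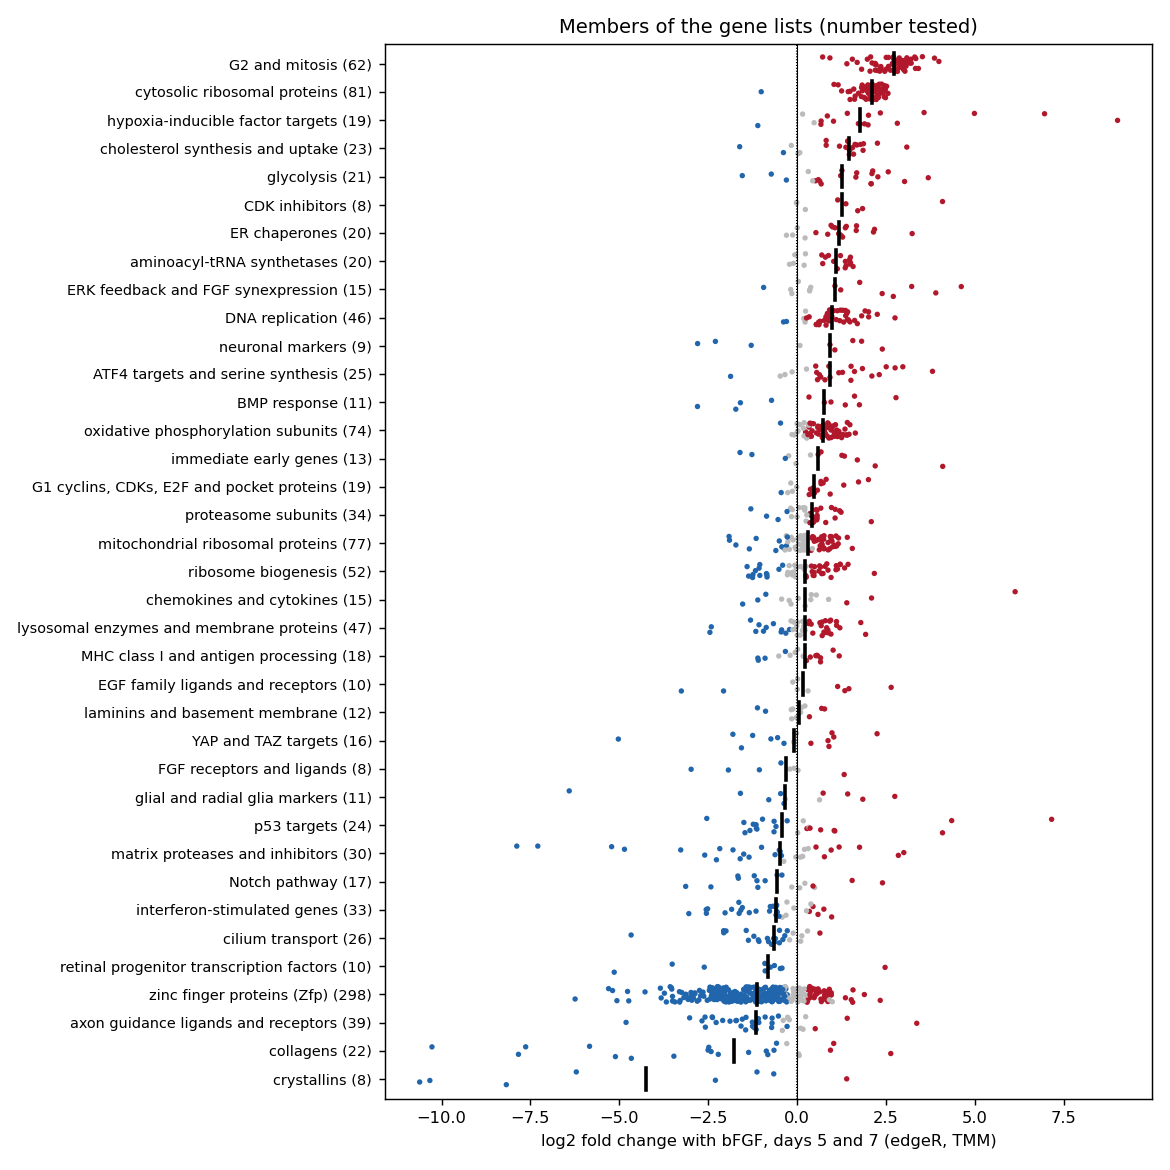
Log2 fold change with bFGF on days 5 and 7 (edgeR, TMM) of each tested member of the gene lists with 8 or more members tested, red for genes past the threshold and higher, blue for past the threshold and lower, grey for neither, with a black bar at the list's median and a dotted line at the median of all genes tested (-0.045). G2 and mitosis genes and cytosolic ribosomal proteins lie apart from 0 almost as a block, while the zinc finger proteins spread over the negative side.

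Cytosolic ribosomal protein genes rose almost as uniformly as the mitotic genes. Of 81 tested, 80 were higher with bFGF and 1 was lower, with a median log2 fold change of 2.09, and with library totals the counts were the same with a median of 1.64. Their summed FPKM was 29800 to 34200 without bFGF and 85400 to 135000 with it. Rpl12 was at 411 in BM and 430 in C on day 5 and at 414 and 455 on day 7, against 1520, 1600, 1790 and 2490 in B and BC of day 5 and B and BC of day 7. The 4 libraries without bFGF were nearly level, and BC on day 7 was the highest. Rps24 and Rpl28 rose by 2.51 ± 0.13 and 2.48 ± 0.17 on the log2 scale (SE). The one gene that fell was Rpl7l1, a nucleolar protein named for its likeness to RPL7, with 38.9 to 45.1 without bFGF and 12.4 to 16.3 with it.

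With TMM scaling, short transcripts as a whole were higher with bFGF. The length classes were not computed with library totals, under which the median of all genes tested moved from -0.045 to -0.50. When the tested genes were cut into 5 equal classes by length, the class with the shortest transcripts (239 to 1600 bases) had a median log2 fold change of 0.40, with 51.6% higher and 23.6% lower, and the class with the longest (4650 to 21700 bases) had -0.29, with 26.8% higher and 49.7% lower. The ribosomal protein genes had a median length of 711 bases. The part of transcript length in their rise was not tested, and their median of 2.09 stood beside 0.40 for the shortest class. Subunits of oxidative phosphorylation, whose median length was 708 bases, rose less. Of 74, 61 were higher and 1 was lower, with a median of 0.72, and with library totals 35 were higher and 9 lower with a median of 0.26. Cox7c, a subunit of cytochrome c oxidase, was at 144 to 159 without bFGF and at 288 to 491 with it, Atp5b, a subunit of ATP synthase, rose by 0.95 ± 0.11 (SE), and Ndufs1, a subunit of complex I, was the one that fell, by 0.47 ± 0.09 on the log2 scale. Mitochondrial ribosomal proteins had no common direction that survived the scaling, with 37 of 77 higher and 11 lower, and 20 and 29 with library totals.

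**Figure D3:**
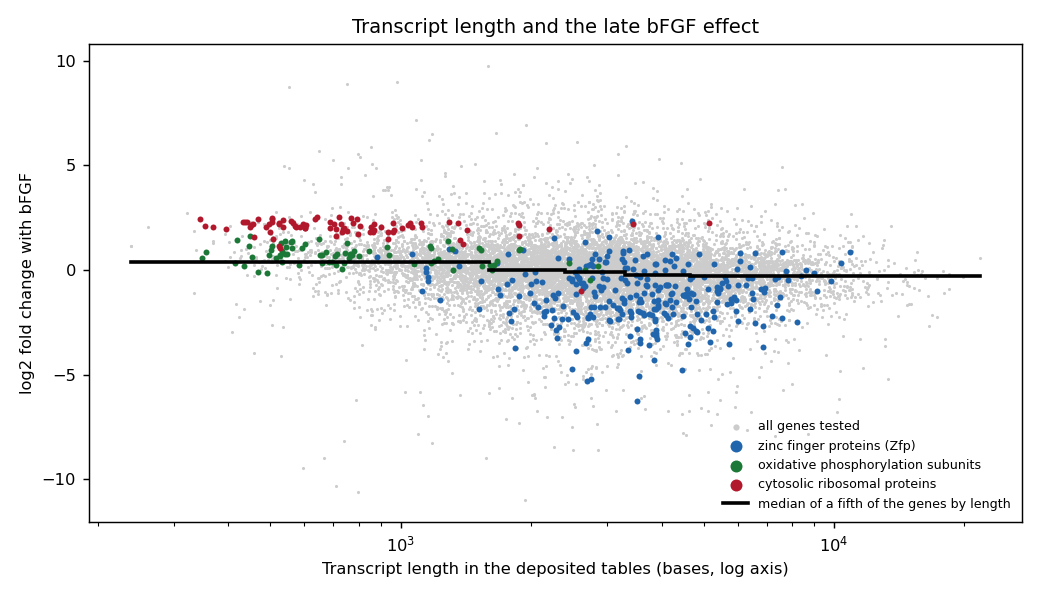
Log2 fold change with bFGF on days 5 and 7 against transcript length in the deposited tables (bases, log axis), grey for all genes tested, red for cytosolic ribosomal proteins, green for oxidative phosphorylation subunits, blue for zinc finger proteins, and black bars for the median of each of 5 equal classes by length. With TMM scaling, the bars descend from 0.40 to -0.29, and the red points lie above the first bar, with 1 exception.

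Among other genes of translation, 15 of the 20 cytosolic aminoacyl-tRNA synthetases tested were higher and none was lower, with a median of 1.08. With library totals 14 were higher and 4 lower. Gars, the synthetase for glycine, rose by 1.57 ± 0.13 on the log2 scale (SE), and Yars, for tyrosine, by 1.49 ± 0.11. Ribosome biogenesis factors were divided, with 25 of 52 higher and 13 lower, and 14 and 24 with library totals. Npm1, a nucleolar histone chaperone, was at 189 to 226 without bFGF and at 521 to 805 with it. Proteasome subunits had 20 of 34 higher and 4 lower, and 7 and 10 with library totals.

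Genes of the integrated stress response and of the endoplasmic reticulum were higher with bFGF. ATF4 is the transcription factor that cells translate when amino acids run short or the endoplasmic reticulum is under load, and its targets include enzymes of serine and asparagine synthesis. Of 25 ATF4 targets and serine synthesis genes, 20 were higher and 1 was lower, with a median of 0.92, and 14 and 4 with library totals. Ddit3, the transcription factor CHOP, was at 54.8 in BM and 62.5 in C on day 5 and at 66.6 and 73.4 on day 7, against 713, 525, 705 and 641 in B and BC of day 5 and B and BC of day 7. It rose by 3.80 ± 0.13 on the log2 scale (SE, edgeR adjusted p = 6e-08). Aldh1l2 and Mthfd2, mitochondrial enzymes of folate metabolism, rose by 2.97 ± 0.18 and 2.75 ± 0.10. Trib3, a pseudokinase that restrains the response, was at 5.38 to 9.63 without bFGF and at 24.3 to 41.5 with it. Asns, asparagine synthetase, was at 28.2 to 46.6 without bFGF and at 113 to 145 with it. Nupr1, a stress-induced nuclear protein, was already high without bFGF, at 1510 to 2080, and was at 3140 to 4050 with it.

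Of 20 chaperones and foldases of the endoplasmic reticulum, 16 were higher and none was lower, with a median of 1.18, and with library totals 15 were higher and 3 lower. Hspa5, the chaperone BiP, was at 224 in BM and 263 in C on day 5 and at 259 and 292 on day 7, against 2060, 1590, 1780 and 1610 in B and BC of day 5 and B and BC of day 7. All 4 pair differences lay between 2.99 and 3.65. Hsp90b1, the chaperone GRP94, rose by 2.14 ± 0.12 on the log2 scale (SE), Manf, a secreted factor of the same organelle, by 2.17 ± 0.11, Herpud1, a component of its degradation machinery, by 1.67 ± 0.12, and Calr, calreticulin, by 1.24 ± 0.11.

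The promoter windows of these lists were searched for the elements that their regulators are known to bind. Lists of known targets are likely to hold such elements whatever bFGF does. The shares therefore describe the lists and not the activity of a regulator in these libraries. The ER stress element, CCAAT and CCACG with 9 bases between them on either strand, was in 7 of the 17 chaperone genes matched (41.2%), against 15 of 8687 tested genes (0.173%) and 0.119% of all windows. The amino acid response element TGATGNAA was in 7 of 22 ATF4 list genes matched (31.8%), against 2.56% of tested genes and 3.97% of all windows. The stretches before the starts of Hspa5 (chr2:34772000-34772068, plus strand) and Asns (chr6:7693210-7693257, minus strand) show 1 match each, in capitals. The ER stress element contains a CCAAT box.
Hspa5: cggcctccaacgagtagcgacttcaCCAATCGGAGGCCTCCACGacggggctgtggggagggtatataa
Asns: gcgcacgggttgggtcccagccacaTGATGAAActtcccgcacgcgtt

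Glycolysis and hypoxia-inducible factor targets were higher as well. Hypoxia-inducible factors induce glycolytic enzymes, collagen hydroxylases and pH regulators, and their targets thus overlap with glycolysis. Of 21 glycolysis genes, 16 were higher and 3 were lower, with a median of 1.26, and their summed FPKM was 5540 to 7160 without bFGF and 19300 to 23000 with it. With library totals 12 were higher and 3 lower. Gpi1, which converts glucose-6-phosphate to fructose-6-phosphate, was at 266 in BM and 291 in C on day 5 and at 237 and 281 on day 7, against 2590, 2520, 2410 and 2490 in B and BC of day 5 and B and BC of day 7. The libraries of each group lay close together, and Gpi1 rose by 3.68 ± 0.11 on the log2 scale (SE, edgeR adjusted p = 3.71e-08). Pgk1, Aldoa and Gapdh, enzymes of the later steps, rose by 3.02 ± 0.11, 2.56 ± 0.12 and 2.27 ± 0.15. Gapdh itself was at 1550 to 2360 without bFGF and at 6130 to 7490 with it. Hk2, a hexokinase and also a target of hypoxia-inducible factor, went the other way, from 41.5 to 65.3 without bFGF to 10.5 to 14.3 with it, and Aldoc fell by 0.73 ± 0.14.

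Of 19 hypoxia-inducible factor targets, 16 were higher and 1 was lower, with a median of 1.77, and 13 and 2 with library totals. The list holds Car9 and Adm, described above. Ndufa4l2, a mitochondrial protein induced by hypoxia, was listed at 0 in BM on both days and in C on day 7 and at 0.12 in C on day 5, and was at 12.4, 13.7, 10.5 and 17.8 in B and BC of day 5 and B and BC of day 7. P4ha1, a subunit of collagen prolyl hydroxylase, was at 50 to 56.4 without bFGF and at 214 to 314 with it. Ankrd37 rose by 3.57 ± 0.40 on the log2 scale (SE). Cited2, an inhibitor of hypoxia-inducible factors, was the one that fell, from 29.9 to 48.1 without bFGF to 9.07 to 14.0 with it.

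The core of the hypoxia response element, ACGTG on either strand, was in 12 of 15 hypoxia-inducible factor targets matched (80.0%) and in 13 of 20 glycolysis genes matched (65.0%), against 29.8% of tested genes and 19.6% of all windows. The letters are also part of other elements such as the E-box CACGTG. The hypoxia list was made of known targets, so its share describes the list and not an effect of bFGF. Car9 (chr4:43506983-43507025, plus strand) had 1 match just before its start and Pgk1 (chrX:106186925-106186998, plus strand) had 2, shown in capitals, CACGT being the letters of the other strand.
Car9: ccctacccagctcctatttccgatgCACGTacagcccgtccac
Pgk1: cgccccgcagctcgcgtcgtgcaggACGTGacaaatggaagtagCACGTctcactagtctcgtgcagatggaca

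Cholesterol synthesis and uptake genes were higher with bFGF, with 18 of 23 higher, 2 lower and a median of 1.46, and 18 and 5 with library totals. Insig1, a sterol sensor of the endoplasmic reticulum, was at 63.4 to 82.2 without bFGF and at 771, 458, 417 and 257 in B and BC of day 5 and B and BC of day 7. Within each day B was above BC. Idi1, Stard4, Hmgcs1 and Fdps rose by 1.85 ± 0.14, 1.86 ± 0.12, 1.78 ± 0.16 and 1.62 ± 0.11 on the log2 scale (SE). A core of the sterol regulatory element, TCACNCCAC, was in 1 of 16 members matched (6.25%), against 1.36% of tested genes and 1.24% of all windows.

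Interferon-stimulated genes were mostly lower with bFGF. Of 33 tested, 22 were lower and 5 were higher, with a median of -0.60, and with library totals 26 were lower and 1 higher. Iigp1 and Irgm1, GTPases that attack vacuoles of intracellular pathogens, were at 66.1 to 75.7 and at 120 to 145 without bFGF, and at 3.43 to 9.11 and 12.7 to 19.0 with it. Ifit1, a sensor of foreign RNA, was at 86.6 to 109 without bFGF and at 6.65 to 17.4 with it. Bst2, the membrane protein tetherin, went the other way and rose by 0.97 ± 0.16 on the log2 scale (SE). MHC class I and antigen processing genes had 9 of 18 higher and 4 lower, which turned to 2 and 9 with library totals. B2m, the light chain of MHC class I, was at 2730 to 3570 without bFGF and at 4290 to 6820 with it. H2-D1, a heavy chain, overlapped, with 2040 to 2920 without bFGF and 2330 to 3460 with it, and was not past the threshold with library totals. Of 15 chemokines and cytokines tested, 3 were higher, Il33 among them, and 3 were lower, below the 36.5% and 40.1% of all genes tested. With library totals 3 were higher and 6 lower.

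Lysosomal genes were divided, with 23 of 47 higher and 12 lower, and 14 and 23 with library totals. Npc2, which hands cholesterol out of the lysosome, was at 84.4 to 118 without bFGF and at 256 to 299 with it. Ctsl, the protease cathepsin L, was at 514 to 548 without bFGF and at 1090 to 1560 with it.

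Most collagens were lower with bFGF. Of 44 in the list, 22 reached a mean FPKM of 1 and were tested. Of these, 16 were lower and 3 were higher, with a median of -1.79. The count and the median hold members such as Col4a3, with a log2 fold change of -10.27. Such members entered the test only through the libraries without bFGF and could only come out lower. Their median length was 6440 bases. The length class of 4650 to 21700 bases had a median of -0.29, with 49.7% lower. The part of length in the fall of collagens was not tested. Col1a1, the main chain of type I collagen, was at 8.28 in BM and 19.5 in C on day 5 and at 25.9 and 45.2 on day 7, against 0.3, 0.43, 0.14 and 0.25 in B and BC of day 5 and B and BC of day 7. Without bFGF it was higher on day 7 than on day 5 and higher in C than in BM of the same day. Col12a1 and Col6a2 fell by 4.66 ± 0.31 and 3.47 ± 0.26 on the log2 scale (SE), and Col3a1 by 1.37 ± 0.24. Col18a1, the basement membrane collagen from which endostatin is cut, rose, from 28.7 to 79.1 without bFGF to 195 to 239 with it. Laminins and other basement membrane genes had 3 of 12 higher and 2 lower, which turned to 0 and 7 with library totals.

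Of 50 matrix proteases and their inhibitors, 30 were tested. Of these, 17 were lower and 7 higher, beside 40.1% lower and 36.5% higher over all genes tested. Mmp13, a collagenase, was at 5.27 to 13.2 without bFGF and at 0.14 to 0.32 with it, and Adamts5, an aggrecanase, fell by 3.28 ± 0.42 on the log2 scale (SE). The urokinase system split. Plau, the protease, was at 6.28 to 24.9 without bFGF and at 0.99 to 2.84 with it, whereas Plaur, its receptor, was at 4.58 to 7.23 without bFGF and at 18.6 to 41.1 with it. The inhibitors split as well. Timp2 and Timp3 fell by 0.62 ± 0.10 and 1.35 ± 0.10, whereas Timp1 rose by 1.75 on the log2 scale and was past the threshold. Of 69 axon guidance ligands and receptors, 39 were tested. Of these, 28 were lower and 3 were higher, with a median of -1.15. Epha2, an ephrin receptor, was among the 3, with 24.1 to 42.6 without bFGF and 216 to 260 with it. The median length of the axon guidance genes was 5220 bases. The length class of 4650 to 21700 bases had a median log2 fold change of -0.29, with 49.7% lower. The part of length in their fall was not tested.

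Of 12 crystallins, 8 were tested. Of these, 7 were lower with bFGF, and 6 with RLE factors in place of TMM factors. All 4 pairs went the same way in 5 of the 8. Besides Crygs, Crybb2 had counts of 17 in BM and 254 in C on day 5 and of 60 and 588 on day 7, and 0 in the 4 libraries with bFGF. Crygs and Crybb2 thus entered the test only through the libraries without bFGF and could only come out lower. Cryab, a small heat shock protein found in many tissues, was the one that rose, with 784 to 867 without bFGF and 1860, 794, 2370 and 1630 in B and BC of day 5 and B and BC of day 7, so that BC on day 5 lay within the range without bFGF.

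Of a list of 20 transcription factors of retinal progenitors, 10 reached a mean FPKM of 1 and were tested. Of these 10, 9 were lower with bFGF, with all 4 pairs in the same direction for each. Pax6, a master regulator of eye development, was at 190 in BM and 172 in C on day 5 and at 165 and 152 on day 7, against 25.1, 33.4, 10.7 and 16.5 in B and BC of day 5 and B and BC of day 7. It fell by 2.61 ± 0.21 on the log2 scale (SE, edgeR adjusted p = 2.6e-06). Lhx2 was at 1.82 to 2.35 without bFGF and at 0.04 to 0.19 with it. It thus entered the test only through the libraries without bFGF and could only come out lower. Six3 fell by 0.75 ± 0.12 and Sox9 by 0.91 ± 0.20. Sox2 was at 60.4 to 85.5 without bFGF and at 29.1 to 48.1 with it, and its log2 fold change was -0.43 ± 0.12. Hes1, a Notch effector, had -0.90 ± 0.27 and was no longer past the threshold without B of day 5 (-0.62) or without B of day 7 (-0.72). Hmga2, a chromatin protein of young stem cells, was the one that rose, from 4.45 to 10.4 without bFGF to 18.8 to 35.1 with it.

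Glial and neuronal markers did not move as lists. Of 11 glial and radial glia markers, 4 were higher and 5 lower, near the shares over all genes tested. Vim, vimentin, was at 1230 to 1640 without bFGF and at 3400 to 4280 with it, whereas Mlc1, a membrane protein of astrocytes and Müller glia, was at 25.8 to 46.9 without bFGF and at or below 0.79 with it. Apoe fell by 0.80 ± 0.11 on the log2 scale (SE). Of 9 neuronal markers, 5 were higher and 3 lower, and 4 and 4 with library totals. Gap43, a growth cone protein, was at 3.87 to 5.69 without bFGF and at 7.99 to 18.9 with it, and Ncam1, an adhesion molecule, was at 49.7 to 59.2 without and at 12.6 to 20.1 with bFGF.

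Genes of other signalling pathways were mostly lower or divided. Of 17 Notch pathway genes, 10 were lower and 3 higher. Notch2 was at 98.3 to 122 without bFGF and at 6.37 to 16.4 with it, Notch1 fell by 1.21 ± 0.12 on the log2 scale (SE), and Rbpj, the DNA-binding partner of the Notch receptors, rose by 2.40 ± 0.12. Among canonical Wnt feedback genes, 3 of 5 were lower and none was higher. Axin2, a direct target of β-catenin, was at 9.56 in BM and 24.7 in C on day 5 and at 7.63 and 20.6 on day 7, and at 1.98, 3.4, 1.31 and 2.33 in B and BC of day 5 and B and BC of day 7. It was thus higher with CHIR99021 than without at each day and bFGF treatment, and lower with bFGF in all 4 pairs. Porcn, the acyltransferase that readies Wnt proteins for secretion, was at 237 to 282 without bFGF and at 7.04 to 9.24 with it, a log2 fold change of -4.52 ± 0.11 (SE, edgeR adjusted p = 1.26e-08).

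BMP response genes had 7 of 11 higher and 4 lower. Id1 and Id3, inhibitors of differentiation that BMP induces, moved in opposite directions, Id1 from 20 to 25 without bFGF to 29.9 to 69.4 with it and Id3 from 175 to 262 to 44.6 to 62.8. Smad7 rose by 1.35 ± 0.10 on the log2 scale (SE). YAP and TAZ targets had 6 of 16 higher and 7 lower, near the 36.5% and 40.1% of all genes tested, and 5 and 10 with library totals. Ctgf was at 26.0 to 83.0 without bFGF and at 0.63 to 1.59 with it, while Cyr61, a protein of the same CCN family, was at 225 to 415 without and 359 to 467 with bFGF, with overlap. Cilium transport genes, most of them intraflagellar transport subunits, had 20 of 26 lower and 1 higher, with a median of -0.65.

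The zinc finger proteins with Zfp symbols, a large set of transcriptional regulators of which many are poorly studied, were lower as a group. Of 298 tested, 222 were lower and 42 higher, with a median of -1.12, and with library totals 245 were lower and 20 higher. Their summed FPKM was 2480 to 2510 in the 4 libraries without bFGF and 1290 to 1500 in the 4 with it. Their median transcript length was 3570 bases, and the length class of the tested genes that spans 3300 to 4650 bases had a median log2 fold change of -0.23, with 47.2% lower. The part of length in this result was not tested.

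Few markers of other retinal cell types reached a mean FPKM of 1. Of 16 photoreceptor markers 1 was tested, Rom1, which was lower with bFGF, and the list had a summed FPKM of 7.42 to 8.35 without bFGF and of 2.14 to 3.63 with it. Of 10 retinal pigment epithelium markers 1 was tested, Rdh5, which was higher, with sums for the list of 11.3 to 15.1 and 16.5 to 37.0. Endothelial markers summed to 2.53 to 2.84 and 1.64 to 2.63. Of 12 microglia markers none reached a mean FPKM of 1, their sums were 1.12 to 3.81 and 0.42 to 3.28, and P2ry12 was listed at 0 in the 8 libraries.

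To ask how far the late effect differed from that of earlier days, the 16 cultured libraries were fitted together with a bFGF effect for day 1, one for day 3 and one for days 5 and 7. On day 1, 621 of 11272 genes (5.51%) were past the threshold, 333 higher and 288 lower, and on day 3 there were 4815 (42.7%), 2497 higher (22.2%) and 2318 lower (20.6%). The late effect differed from the day 1 effect in 7047 genes (62.5%) and from the day 3 effect in 5349 (47.5%). Against day 1, 3344 genes had a more positive (29.7%) and 3703 a more negative effect (32.9%), and against day 3, 2502 (22.2%) and 2847 (25.3%). The early points rest on 2 pairs of libraries each and the late one on 4.

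The lists differed in when they moved. No G2 and mitosis gene was past the threshold on day 1 (median log2 fold change 0.03), 61 of 62 were higher on day 3 (median 2.0), and the late effect was larger than that of day 3 in 39. Ribosomal protein genes had no member past the threshold on day 1 (median 0.18) and 76 of 81 higher on day 3 (median 0.95), and 80 were higher in the late effect than in that of day 3. DNA replication genes had 39 of 46 higher on day 3, and the late effect differed from that of day 3 in 10 of them, 6 upward and 4 downward. ERK feedback genes were present from the start, with 8 of 15 higher on day 1 and 11 on day 3. Dusp4 rose by 1.5 ± 0.23, 3.72 ± 0.25 and 4.65 ± 0.19 on the log2 scale (SE) on day 1, on day 3 and on the late days, whereas the late effect on Etv4 did not differ from that on day 3 past the threshold (difference -0.18 ± 0.25, edgeR adjusted p = 0.57).

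Of 52 ribosome biogenesis factors, 29 were higher on day 1 and none lower, with a median of 0.56. On day 3, 16 were higher and 2 lower, with a median of 0.23. The late effect differed from that of day 3 upward in 11 and downward in 13, and it was lower than that of day 1 in 22 and higher in 10. Lysosomal genes had 8 higher and 14 lower of 47 on day 3, and the late effect was more positive than that of day 3 in 23 and more negative in 4. Of 33 interferon-stimulated genes, 1 was higher and 7 were lower on day 3, the latter near the 20.6% of all genes. The late effect was more negative than that of day 3 in 14 of them and more positive in 2. Zinc finger proteins had 1 higher and 1 lower of 304 on day 1, and 25 higher and 101 lower on day 3. The late effect on them was more negative than that of day 3 in 181 and more positive in 22.

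Among genes with a mean FPKM of 20 or more over the 16 cultured libraries, those whose effect grew most from day 1 were Car9, Gdf15 and Angptl7, by 6.77 ± 0.50, 6.07 ± 0.33 and 5.71 ± 0.58 on the log2 scale (SE), followed by Prl2c3, Hspa1a and Aqp8. Car9 was at 3.7 to 4.94 in the 4 media on day 1, and on day 3 at 28.6 and 32.0 in BM and C, and at 171 and 213 in B and BC. Its level without bFGF was thus lower on days 5 and 7 than on day 3, while its level with bFGF was higher. Under the same limit, the most negative differences from day 1 were those of Crygs, Arsi, Acta2, S1pr3, Angptl4, a lipoprotein lipase inhibitor, and Porcn. Slc38a3, whose mean FPKM over these libraries was 12.6, had a difference of -7.12 ± 0.90 (SE) from day 1 and of -3.73 ± 0.54 from day 3. Porcn was at 7.35 in BM and 6.11 in C on day 1 and at 122 and 121 on day 3, against 3.97 and 3.79 in B and BC on day 1 and 12.7 and 15.6 on day 3. Its level without bFGF was thus far higher on day 3 than on day 1, and that in B and BC rose less.

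Heat shock genes and growth arrest genes were among those with the largest gain over day 3, Hspa1a and Hspa1b being uncertain as separate genes. Hspa1b had effects of -0.23 ± 0.54, 0.18 ± 0.54 and 3.86 ± 0.44 on the log2 scale (SE) on day 1, on day 3 and on the late days. Hspb1, the small heat shock protein HSP27, had -0.24 ± 0.43, 0.53 ± 0.43 and 3.88 ± 0.35. Gadd45a and Gadd45b, which respond to DNA damage and stress, gained 3.09 ± 0.37 and 2.87 ± 0.24 over day 3. Gadd45b was at 38.8 to 51.7 without bFGF and at 332 to 452 with it on days 5 and 7. In the other direction, Iigp1 was not past the threshold on day 1 or day 3 and had a late effect of -3.01 ± 0.23, and Erbb2 went from -0.17 ± 0.17 on day 1 to -0.83 ± 0.17 on day 3 and -3.22 ± 0.14. Nrep, a neuronal protein, and Klhdc8a also fell further, by 3.14 and 2.95. Fst, which encodes follistatin, an activin antagonist, was the opposite case, with 2.42 ± 0.22 on day 1, 1.44 ± 0.22 on day 3 and 0.97 ± 0.15 late.

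**Figure D4:**
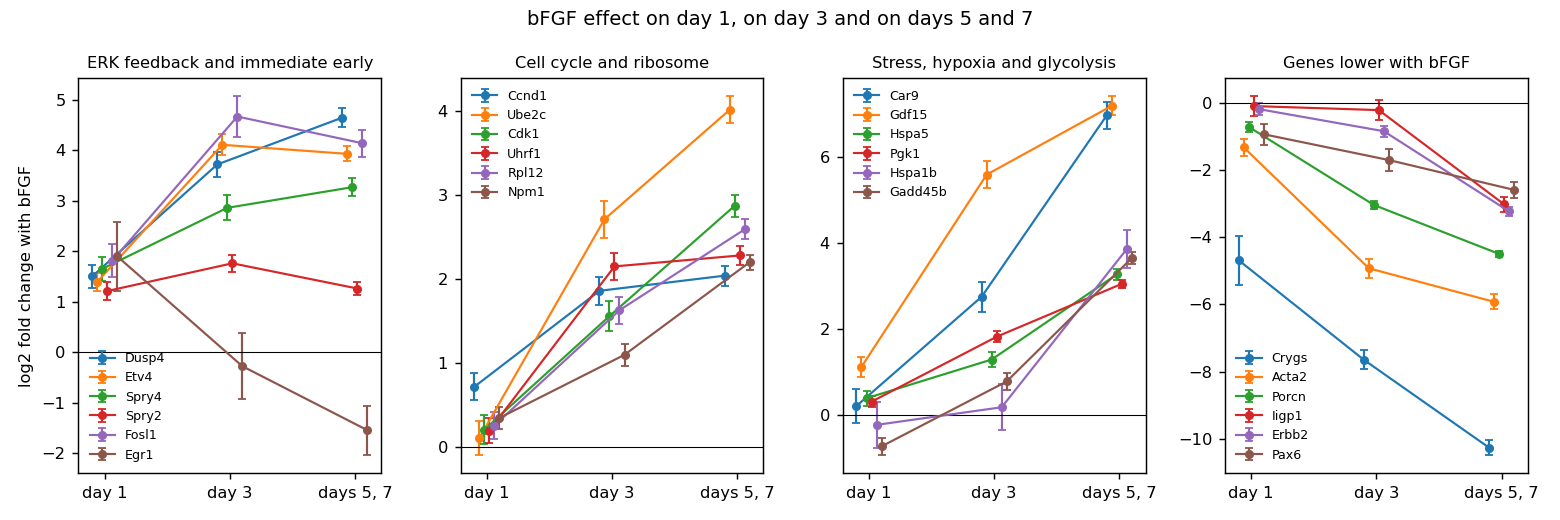
Log2 fold change with bFGF (points, error bars 1 SE, edgeR fit of the 16 cultured libraries) on day 1, on day 3 and on days 5 and 7 together, for 24 genes in 4 panels. ERK feedback genes are above 0 from day 1, mitotic and ribosomal genes from day 3, and Hspa1b, Iigp1 and Erbb2 are farthest from 0 on days 5 and 7.

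The late effect was then split into day 5 and day 7. The effects of these days differed in 805 of 11246 genes (7.16%), 336 more positive and 469 more negative on day 7, and in 3365 genes at an unadjusted p under 0.05. This count rested on single libraries. It was 944 without B of day 5, but 8, 49 and 35 without BC, BM or C of day 5, and 12, 25, 5 and 50 without BC, BM, B or C of day 7, with fewer residual degrees of freedom in each. Hspa1b was 1 of 4 well expressed genes that shared the smallest adjusted p-value, with Egr1, Xbp1 and Fbln2. It was at 17.9 in BM and 14.9 in C on day 5 and at 14.7 and 14.9 on day 7, against 71.4 and 65.4 in B and BC on day 5 and 320 and 425 on day 7. Its effect was larger on day 7 by 2.66 on the log2 scale (edgeR adjusted p = 0.0072). Hspa1a and Hspb1 followed the same course, with 26.1 and 20.6 in B and BC on day 5 and 142 and 237 on day 7 for Hspa1a, and 902 and 574 on day 5 and 1830 and 2360 on day 7 for Hspb1.

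Egr1 was at 4.12 in B and 5.43 in BC on day 5 and at 29.2 and 22.7 on day 7, with 43.4 to 56.5 without bFGF. Its fall was therefore smaller on day 7, by 2.42 (edgeR adjusted p = 0.0072). Nfkbia, the inhibitor of NF-κB and itself an NF-κB target, was at 210 and 247 in B and BC on day 5 and at 405 and 443 on day 7, with 152 to 224 without bFGF. Xbp1, a transcription factor of the unfolded protein response, had the opposite course. It was at 32.6 and 42.3 in B and BC on day 5, level with 34.2 and 42.6 in BM and C, and at 14.6 and 16 on day 7 against 39.5 and 46.5, so its effect was +0.38 on day 5 alone and -0.98 on day 7 alone. The levels of Fbln2, an elastic fibre protein, crossed, with 102 and 71.6 in BM and C and 245 and 179 in B and BC on day 5, and 227, 162, 163 and 130 in that order on day 7, and its effect over both days lost its call without BM, B or C of day 5 (0.68, 0.73 and 0.64), with library totals (0.45) and on day 7 alone (0.12). Col1a1 was more negative on day 7 by 2.27 (edgeR adjusted p = 0.02).

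**Figure D5:**
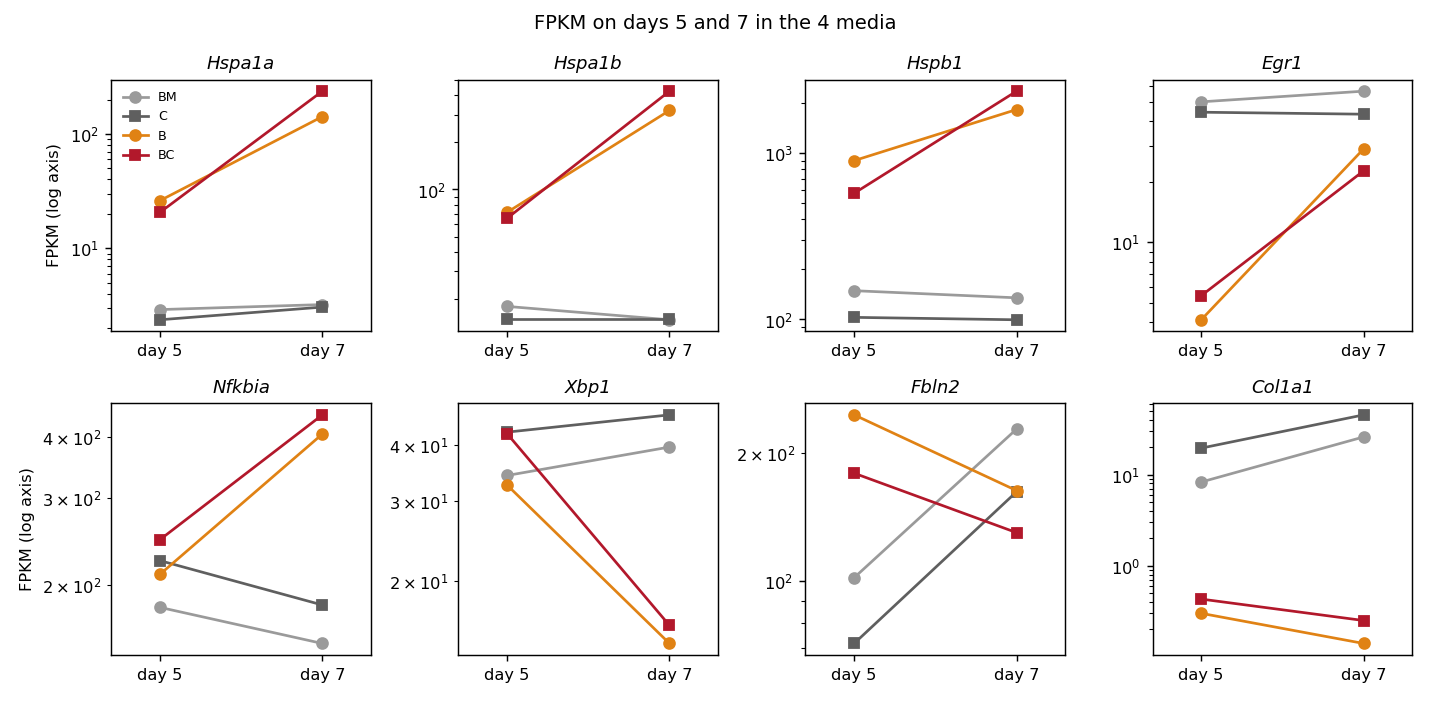
FPKM (log axes with a range of their own in each panel) of 8 genes on day 5 and day 7 in BM (light grey circles), C (dark grey squares), B (orange circles) and BC (red squares), 1 library a point. The heat shock genes are higher on day 7 than on day 5 in B and BC and nearly level in BM and C, Xbp1 is lower on day 7 in B and BC, and the lines of Fbln2 cross.

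The late effect was last compared between media with and without CHIR99021. The bFGF effect with CHIR99021 and that without it differed past the threshold in none of 11246 genes (0.0%) in edgeR's test, with 712 at an unadjusted p under 0.05, while DESeq2 gave 74. The fit left 3 residual degrees of freedom, so the lack of calls does not show that the effects were equal. Angptl7 had the smallest adjusted p-value of the well expressed genes, 0.0519, with a log2 fold change that was larger by 1.94 with CHIR99021. For Thrsp the effects differed by -3.88 (edgeR adjusted p = 0.14), and its level without bFGF was higher in C than in BM. Postn, a matrix protein, was at 111 to 146 in the 4 libraries without bFGF, at 1.22 and 0.66 in B and at 19.3 and 9.54 in BC on days 5 and 7, a difference between the effects of 4.0 (edgeR adjusted p = 0.14).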

How the data were processed

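RNA was sequenced from mNRPCs cultured in BM, B, C or BC, 1 library for each medium and day, and groups were taken from the sample labels. The authors deposited a table per library with the expected count and the FPKM of each gene. The submitters' processing notes name Bowtie2, RSEM and the build mm10, whereas the study's methods name another quantifier, eXpress, and versions are not given in the sources used here. Where a library's table lacked a gene, its value was set to 0.

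After rounding, the expected counts went into the quasi-likelihood test of edgeR 4.0.16 (R 4.3.3) with TMM factors, for genes whose mean FPKM reached 1, with an adjusted p (Benjamini-Hochberg) under 0.05. The 8 libraries of days 5 and 7 were fitted with bFGF, day and CHIR99021 as terms, which left 4 residual degrees of freedom. The 16 cultured libraries were fitted with a bFGF effect per period, and the interactions in the 8 libraries. The SE was the size of the log2 fold change divided by the root of F. No 2 libraries held identical counts. The code was tested on simulated data in which few genes were changed, with rises and falls in balance. That test cannot speak for the scaling of libraries that differ in composition as these do. Alternatives were DESeq2 1.42.0, limma 3.58.1 on log2(FPKM + 1) and log2(FPKM + 0.1), other scalings, filters and covariates, and leaving out each library. Since each medium and day has 1 library, leaving one out leaves its pair without a partner.

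Named genes were the 12 highest and 12 lowest log2 fold changes among genes whose mean FPKM reached 20 and whose 4 pairs had 1 direction, the members of each list with the largest changes and the highest levels among those whose mean FPKM reached 5, the 6 most positive and 6 most negative differences from the effects of day 1 and of day 3 among called genes whose mean FPKM over the 16 cultured libraries reached 20, and the 5 smallest p-values of each interaction, shortened for length. Dusp6, Il17rd, Spry2, Cdk1, Ccnb1, Ccnb2, Asns, Hmgcs1, Mki67, Rax, Otx2, Lhx2, Rgs5, Cspg4, P2ry12, Rom1, Rdh5, Twist1, Prrx1, the differences given for Slc38a3 and some list members fall outside this rule and were chosen after their values were seen. The comparison, the lists and the rule were chosen with earlier results of these data known. Promoter windows are RefSeq's for GRCm38.p6, the assembly that mm10 names, and a list member counted as holding an element if any of its windows did. Some items are not reported here.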

Additional observations from a re-analysis of the deposited data

Results flagged for a closer look

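In 3 of 48 groups of 4 libraries examined, 1 library stood apart by Dixon's test at the 95% level, which chance gives in about 1 group of 20. All 3 were BC on day 5 among the libraries with bFGF, with an FPKM of 0.14 for Slc38a3, 1.24 for S1pr3 and 0.73 for Emilin1, genes that are near 0 in each of these libraries.

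The bFGF effect differed between periods by edgeR's test of the difference in the genes named for it. On the log2 scale, the late effect exceeded that of day 1 by 6.77 for Car9, 6.07 for Gdf15, 5.71 for Angptl7, 5.05 for Prl2c3, 5.02 for Hspa1a and 4.94 for Aqp8. It was below that of day 1, with differences of -5.59 for Crygs, -4.7 for Arsi, -4.61 for Acta2, -4.61 for S1pr3, -3.96 for Angptl4 and -3.79 for Porcn.

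Against day 3, the differences were 4.22 for Car9, 4.02 for Hspa1a, 3.68 for Hspa1b, 3.36 for Hspb1, 3.09 for Gadd45a and 2.87 for Gadd45b. They were -3.92 for S1pr3, -3.49 for Arsi, -3.22 for Islr, -3.14 for Nrep, -2.95 for Klhdc8a and -2.81 for Iigp1. Between day 7 and day 5, they were 2.66 for Hspa1b, 2.42 for Egr1, 1.24 for Nfkbia, -1.38 for Xbp1 and -1.63 for Fbln2.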

How the results depend on the processing

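With 1 library left out, the late effect was called in 8027 to 8568 genes, its difference from day 1 in 5971 to 7196 and from day 3 in 3898 to 5696. The late effect was called in 8293 with the matched pair as a block in place of day and CHIR99021, and no named gene changed its call under that block. Of 157 genes named with values and followed through the alternatives, 152 kept their call and direction in the alternatives run. Most of these genes were chosen for large changes, so this does not speak for the other genes tested.

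The count of higher genes moved with the scaling, to 2387 with library totals, 2447 with limma on log2(FPKM + 1) and 2433 on log2(FPKM + 0.1). Genes at least 2-fold higher in all 4 pairs numbered 640, 559 and 642 there, and 2052 at 1.5-fold. Genes at least 2-fold lower numbered 2653 with library totals, 2582 on log2(FPKM + 0.1), 972 at a mean FPKM of at least 5 and 2580 at 1.5-fold. The difference between day 5 and day 7 was called in 1234 genes by DESeq2 and in 5 to 944 with 1 library left out. That between media with and without CHIR99021 was called in 74 genes by DESeq2, 12 and 4 by limma on log2(FPKM + 1) and log2(FPKM + 0.1), 3 with no filter, 1 each with upper-quartile factors, library totals and a mean FPKM of at least 5, and 0 to 6 with 1 library left out. The cause was not tested.

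Fgfr1 turned to -0.12 with upper-quartile factors, -0.43 with library totals, -0.09 at a mean FPKM of at least 5, -0.32 on both limma scales, -0.06 on day 7 alone and between -0.06 and 0.14 with 1 library left out. Xbp1 turned to 0.38 on day 5 alone. Depth limits genes near 0 in a group, such as Crygs.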
